A study of Arabidopsis thaliana with 12 samples.

Results

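SCRL26 (SCR-like 26, AT4G22105) is a gene on chromosome 4 of Arabidopsis thaliana that encodes a small secreted peptide rich in cysteines. It is 1 of 16550 genes that could be named and tested here, and 1 probe set read it. Below, a gene is called measured if the annotation used gave it a row of its own. Other genes may be on the arrays in rows without a single gene name. The gene was selected on its measured values, because it stood much higher with DEX than without DEX in the presence of CHX and not in its absence. Its differences between DEX and no DEX, with and without CHX, are therefore given as a description, with no test.

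SCR-like genes are named for SCR, the S-locus cysteine-rich protein of crucifers. In self-incompatible Brassica plants SCR sits on the pollen coat and is recognised by a receptor kinase of the stigma, which leads to rejection of the plant's own pollen. The peptides of this class are made with a signal for secretion and are held together by disulfide bonds, like the plant defensins and the low-molecular-weight cysteine-rich (LCR) peptides of Arabidopsis, with which they are often grouped. Plant defensins are best known for acting against fungi.

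RNA was measured in roots of 5-day-old seedlings that all carried the transgene 35S::LBD16:GR together with the mutant alleles arf7-2 and arf19-5. ARF7 and ARF19 are auxin response factors that activate the lateral root regulator LBD16. The transgene encodes LBD16 fused to the steroid-binding part of the glucocorticoid receptor under the broadly active 35S promoter. Seedlings were treated for 4 hours with 2 µM dexamethasone (DEX) plus 10 µM cycloheximide (CHX), with 10 µM CHX, with 2 µM DEX, or with mock solution (0.1% DMSO), and each treatment was read on 3 arrays. DEX lets the fusion protein enter the nucleus, and CHX blocks protein synthesis. Roots without the fusion were not among the arrays, so DEX was not measured apart from it, and all arrays came from this line.

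The labels describe the arrays of each treatment as independent sets of RNA. Nothing says whether these were separate batches of seedlings, so p-values measure the spread between the RNA sets. Over the genes tested, replicates correlated at 0.992 to 0.994, and arrays with CHX correlated with those without it at 0.873 to 0.885. LBD16 itself read between 9.29 and 9.67 (log2) on every array, and its probes may read both the transgene and the native gene. Of the root markers listed, 2 of 18 were measured, the root hair expansins EXPA7 and EXPA18, with mock means of 8.15 and 10.42. Of the shoot markers 3 of 9 were measured, and their mock means were 7.45 for RCA (Rubisco activase), 4.96 for PORB and 2.77 for FMA. RCA, a photosynthesis gene, thus read close to EXPA7 with mock, but values of different probe sets need not share a common scale. RCA stood at 7.04 with DEX and at 6.58 both with DEX+CHX and with CHX. The number of arrays limits the precision.

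SCRL26 stood far higher with DEX and CHX together than under any other treatment. On the deposited log2 scale it read 10.07, 10.17 and 9.77 on the DEX+CHX arrays. The CHX arrays read 5.07, 5.57 and 6.21, the DEX arrays 4.76, 4.47 and 4.96, and the mock arrays 4.29, 4.57 and 4.80. All 3 DEX+CHX arrays lay above every other array, with a gap of 3.56 to the highest CHX array, which is 11.8-fold. The CHX arrays lay above all DEX and mock arrays, while the DEX and mock arrays overlapped. RNA from whole roots cannot tell more cells with the transcript apart from more transcript per cell.

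**Figure D1:**
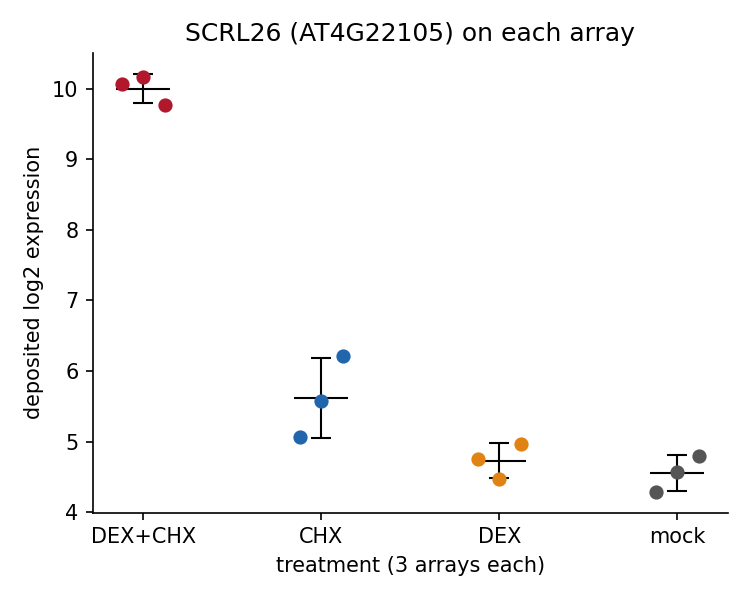
Deposited log2 expression of SCRL26 (vertical axis, which does not start at 0) on each of the 12 arrays, by treatment (horizontal axis). Points are arrays, the wide line is the mean and the bar is ± SD (n = 3). The DEX+CHX arrays sit between 9.77 and 10.17, all others at or below 6.21.

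In order of level, the means were 10.00 ± 0.21 (SD, n = 3) with DEX+CHX, 5.62 ± 0.57 with CHX, 4.73 ± 0.25 with DEX and 4.55 ± 0.26 with mock. DEX and mock, neighbours in this order, differed by 0.18, less than the SD of either. Both means lay not far above 4.15, the mean under which the dimmest 30% of genes lay. Low values have no stated floor, so this small difference does not show a lack of response. Fold values taken from that low base carry the same limit. DEX+CHX exceeded DEX alone by 5.27, or 38.7-fold, and mock by 5.45, or 43.7-fold. Had the separate log2 differences of DEX and of CHX from mock simply added up, the level with both would have been 5.80. The measured mean was 4.21 above it. That difference in the DEX effect, and the difference of 4.39 between DEX+CHX and CHX, ranked number 1 from the top among all 38408 rows of the arrays, unnamed rows included. The gene was chosen on these quantities, so their top rank is no separate result. The difference between DEX and mock ranked 8230 from the top among the same rows, and 3084 among the 16550 genes.

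The same values were also compared by replicate number, as a description that adds no separate support. DEX+CHX exceeded CHX by 5.00, 4.60 and 3.56 in replicates 1, 2 and 3. DEX differed from mock by 0.47, -0.10 and 0.17. The smallest difference with CHX was thus larger than the largest without it, and without CHX the sign was not the same in all 3.

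The comparison of CHX with mock was not part of how SCRL26 was chosen, although its arrays also served in the comparisons that were. SCRL26 rose 2.09-fold with CHX alone, to 5.62 ± 0.57 against 4.55 ± 0.26 with mock (log2 difference 1.06 ± 0.25 SE, limma adjusted p = 0.00314). CHX exceeded mock by 0.78, 1.00 and 1.41 in the same-numbered arrays, which were not read as pairs. The lowest CHX array was 0.27 above the highest mock array, so every such difference had to be positive. Such changes were common, since 24.2% of all genes tested were called higher with CHX, 30.7% were called lower, and 26.5% had every CHX array above every mock array. An exact two-sided permutation test of SCRL26 alone gave p = 0.1, and no smaller p can be had from groups of this size.

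The size of the CHX comparison moved with the scaling of the arrays. The SCRL26 difference was 1.51 after quantile normalization (adjusted p = 0.000206) and 0.95 with each array centred on its median (adjusted p = 0.00787). Over all genes tested the median CHX difference was -0.08, and these settings shifted it by 0.30 and -0.12. Of all calls, 44.0% were higher as deposited, against 64.3% after quantile normalization and 36.3% with centred arrays. The call of SCRL26 held under these and the other alternatives tried, single arrays left out included (adjusted p from 0.000206 to 0.0156).

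Its CHX arrays were unusually uneven. Their SD of 0.57 exceeded that of 98.8% of all genes tested, whose median SD with CHX was 0.145, and also that of 98.8% of the 1000 genes nearest to SCRL26 in CHX level. With DEX+CHX, DEX and mock, the SD of SCRL26 exceeded that of 68.6%, 74.4% and 76.1% of genes, and of 86.9%, 63% and 62.1% of the 1000 genes nearest in level. Leaving out CHX replicate 3, the highest of the 3, lowered the CHX difference from mock to 0.77 (adjusted p = 0.01) and took the difference between DEX+CHX and CHX to 4.68. Whichever array was left out, DEX+CHX exceeded CHX by 4.11 to 4.68.

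No other measured gene named as SCR-like, LCR or plant defensin came near the DEX difference of SCRL26 under CHX. Cysteine-rich peptides under other names were not listed. RefSeq names 28 SCR-like genes, of which 11 besides SCRL26 were measured. With DEX under CHX, none of the 11 was called (limma, adjusted p below 0.05), and none had an unadjusted p below 0.05. Their differences ran from -0.42 for SCRL23 to 0.33 for SCRL24, with a median of 0.01 against -0.01 over all genes. In this comparison 0.592% of all genes tested were called, so few calls would be found in any list of this length. With DEX alone none of the 11 was called either, against 1.52% of all genes. Their differences ran from -0.34 for SCRL18 to 0.55 for SCRL25, with a median of 0.07 against 0.03, and 1 (9.09%) had an unadjusted p below 0.05, against 10.4% of all genes. Of the 11, 9 had a mean over all arrays at or below 4.15, the limit under which the dimmest 30% of genes lay, and low values have no stated floor, so a missing call there does not show a lack of response.

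**Figure D2:**
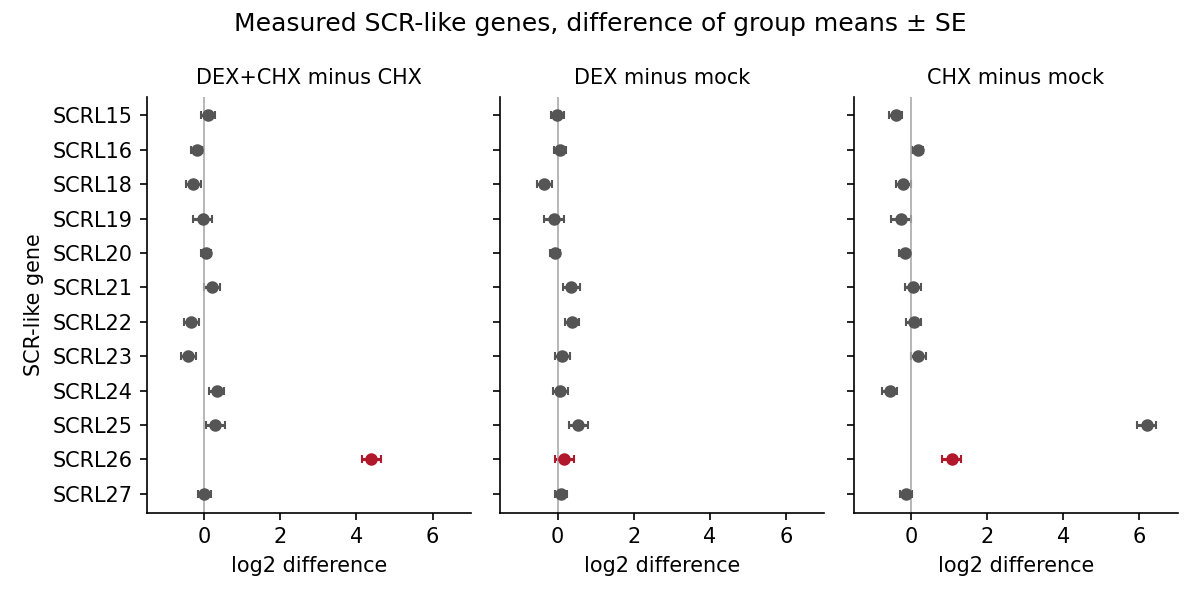
Log2 difference of group means (horizontal axis) for the 12 measured SCR-like genes (vertical axis) in 3 comparisons, with bars of ± SE from the limma fit and SCRL26 in red. SCRL26 stands alone at 4.39 for DEX+CHX minus CHX, and SCRL25 at 6.19 for CHX minus mock.

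SCRL25 (AT4G32714) was the other SCR-like gene with a large change, which came with CHX. It read 9.69, 9.61 and 9.08 with DEX+CHX and 9.10, 9.56 and 8.83 with CHX. It read 3.69, 3.69 and 3.19 with DEX and 3.12, 3.27 and 2.53 with mock. The arrays with CHX lay far above those without it, and within each of these classes the arrays with and without DEX overlapped. SCRL25 rose 73.2-fold with CHX (limma adjusted p = 1.09e-09), which is 6.19 ± 0.25 (SE) on the log2 scale, and by 6.39 after quantile normalization and 6.08 with centred arrays. Its difference with DEX was 0.29 ± 0.25 under CHX (adjusted p = 1.00) and 0.55 ± 0.25 without CHX (adjusted p = 0.469). With a replicate block the difference without CHX was called (limma adjusted p = 0.0371).

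SCRL24 (AT4G32717), which lies 2 positions from SCRL25 in the RefSeq gene order, stood at -0.56 with CHX (limma adjusted p = 0.0298), and its mean of 1.31 with CHX, against 1.87 with mock, was among the dimmest. That call was lost after quantile normalization (adjusted p = 0.0862) and without any of 4 arrays, namely CHX replicates 1 and 3 and mock replicates 2 and 3 (adjusted p up to 0.117). SCRL25 and SCRL24 made up the 2 of 11 that were called with CHX, against 54.9% of all genes. The other 9 stood between -0.41 and 0.20. After quantile normalization 3 of the 11 were called higher and none lower, and with centred arrays 1 was higher and 2 were lower.

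Among the related LCR peptides and plant defensins (PDF), 58 and 13 genes were measured. None was called with DEX, either under CHX or without it. Under CHX, 2 of the 71 genes of these lists (2.82%) had an unadjusted p below 0.05, against 5.27% of all genes tested. LCR31 was the higher of them at 0.61 ± 0.15 (limma adjusted p = 0.208), below the 4.39 of SCRL26. Without CHX, 7 LCR and 2 PDF genes (12.7% of the 71) had an unadjusted p below 0.05, close to the 10.4% of all genes. The highest was LCR53 at 1.01 ± 0.23 (adjusted p = 0.0575), which read 2.23, 1.96 and 3.04 with DEX and 1.47, 1.41 and 1.31 with mock. Its arrays did not overlap. The DEX arrays also all lay above mock in LCR32, LCR49, LCR65, LCR67 and LCR81, and all below in LCR37, LCR69, PDF1.3 and PDF1.5. The share of all genes without overlap was not counted. LCR53 was called with a trended and robust variance (limma adjusted p = 0.0352) and without DEX replicate 2 (0.0245), where LCR65 was called too (0.0375). Of the 82 SCRL, LCR and PDF genes besides SCRL26, 68 had means below that limit for dim genes.

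**Figure D3:**
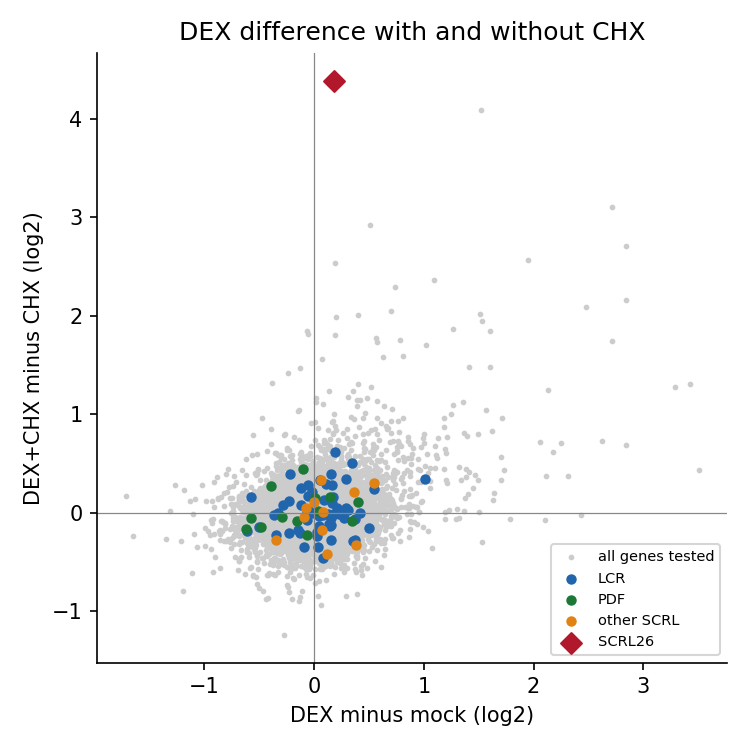
Each point is a gene, placed by its log2 difference for DEX minus mock (horizontal axis) and for DEX+CHX minus CHX (vertical axis), with LCR, PDF and other SCRL genes in colour over all genes tested in grey. SCRL26, at 0.18 and 4.39, is the highest point, while the 82 other genes of these lists lie between -0.46 and 0.61 on the vertical axis.

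CHX alone changed genes of both lists. Of the 58 LCR genes 10 rose and 1 fell (19% called, against 54.9% of all genes), while of the 13 PDF genes none rose and 6 fell (46.2%). LCR20 rose most among the LCR genes, by 2.36 ± 0.24 (limma adjusted p = 4.40e-06). It read 6.05, 6.30 and 6.39 with CHX and 3.54, 4.15 and 3.96 with mock. LCR63 rose by 1.76 and LCR37 by 1.44, and LCR85 was the gene of the LCR list that fell, by 1.38. Genes with both an LCR and a PDF name were placed in the PDF list, LCR68 and LCR69 among them. Their falls, given next, thus count as falls of PDF genes. Among the defensins LCR69, also named PDF2.2, fell by 3.82 ± 0.16 (adjusted p = 1.27e-09). It read 8.42, 7.82 and 8.07 with CHX and 11.91, 11.95 and 11.91 with mock.

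LCR68 (PDF2.3) fell by 3.38, PDF2.1 by 1.87 and PDF2.5 by 1.55. PDF1.5 and PDF1.4 stood at -0.69 and -0.81, and both lost the call after quantile normalization (adjusted p = 0.0904 and 0.180). PDF1.4 lost it with the compared arrays alone (0.0745) and in 8 of the 12 fits without 1 array (adjusted p up to 0.184), all but those without mock replicate 1, DEX replicate 1 or 3 or DEX+CHX replicate 2. LCR22, at 0.71, lost it with centred arrays (0.0732), with the compared arrays alone (0.0627) and with a replicate block (limma adjusted p = 0.0585). The call of LCR22 was also lost without CHX replicate 3 or any of the mock replicates (up to 0.123). After quantile normalization 18 LCR genes were higher and 1 lower, and 4 PDF genes were lower. With centred arrays 9 LCR genes were higher and 5 lower, and 7 PDF genes were lower. The probe sequences were not used here, and close relatives such as LCR68 and LCR69 may share signal.

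On the receptor side, the kinases that recognise SCR in Brassica have relatives in Arabidopsis, the S-domain kinases. RefSeq gives 9 of them a name of this kind, and 1 had a named row of its own here. It was SD1-29 (AT1G61380), a receptor kinase known for its part in sensing bacterial fatty acids. SD1-29 stood at 9.17 with DEX+CHX, 9.18 with CHX, 6.88 with DEX and 6.81 with mock. It rose by 2.37 ± 0.15 with CHX (limma adjusted p = 7.98e-08), and its difference with DEX was -0.01 under CHX (adjusted p = 1.00) and 0.07 without it (adjusted p = 0.951).

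The genes next to SCRL26 had much smaller DEX differences. Of the 3 genes on either side in the RefSeq gene order, AT4G22090, AT4G22110 and AT4G22120 were measured, while RHS14, BGLU3 and SCRL14 were not analysed here. AT4G22110, which directly follows SCRL26, read 3.72, 3.95 and 4.24 with DEX+CHX and 4.00, 4.03 and 4.08 with CHX, so that the groups overlapped (difference -0.07, limma adjusted p = 1.00). AT4G22090 differed by 0.22 and AT4G22120 by 0.11 in that comparison (adjusted p = 1.00 for both). Without CHX the differences with DEX were 0.09 for AT4G22090, -0.15 for AT4G22110 and -0.13 for AT4G22120, none of them called. With CHX alone AT4G22120 fell by 2.17 ± 0.11 (adjusted p = 7.05e-09), and the other two were not called (-0.46 and -0.09, adjusted p = 0.267 and 0.717).

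Genes whose pattern was most like that of SCRL26 were ranked by Pearson's r over the 12 arrays, which share the 4 treatments. The values describe these arrays and carry no test. The highest r was that of AT3G16660 (0.979), followed by SWEET8 (0.969), a sugar transporter of the SWEET family, AT5G25970 (0.961), AT1G61667 (0.956) and AT4G33170 (0.954). AT4G03450 (0.950), AT2G22750 (0.946), AT1G12600 (0.942), PUCHI (0.941) and AT4G18450 (0.937) completed the 10. PUCHI, an AP2-type transcription factor that shapes lateral root primordia, averaged 5.29 with DEX+CHX, 3.98 with CHX, 3.80 with DEX and 3.40 with mock.

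All 10 had every DEX+CHX array above every CHX array, but over a smaller range than SCRL26. This held for 5.12% of all genes tested. Ranking by r with SCRL26 over these arrays favours such genes, so it is no separate result. AT3G16660 read 6.67, 7.30 and 6.74 with DEX+CHX, 4.29, 4.53 and 4.31 with CHX, 3.80, 4.15 and 4.27 with DEX, and 3.94, 4.05 and 3.66 with mock. SWEET8 read 6.72, 5.92 and 6.05 with DEX+CHX, 4.03, 4.40 and 4.24 with CHX, 3.64, 3.94 and 3.80 with DEX, and 3.27, 3.65 and 3.27 with mock. In both genes the DEX and mock arrays overlapped and the CHX arrays lay above the mock arrays, as in SCRL26. The DEX+CHX minus CHX differences of the 10 ran from 0.67 for AT1G12600 to 2.53 for AT3G16660, against 4.39 for SCRL26. Their CHX minus mock differences ran from 0.06 for AT5G25970 to 0.89 for AT4G03450, and their DEX minus mock differences from -0.06 for AT5G25970 to 0.81 for AT4G18450. The list depended on the measure, since none of the 10 was among the first 10 by Spearman's rho and 1 was by root mean square distance from the mock mean.

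**Figure D4:**
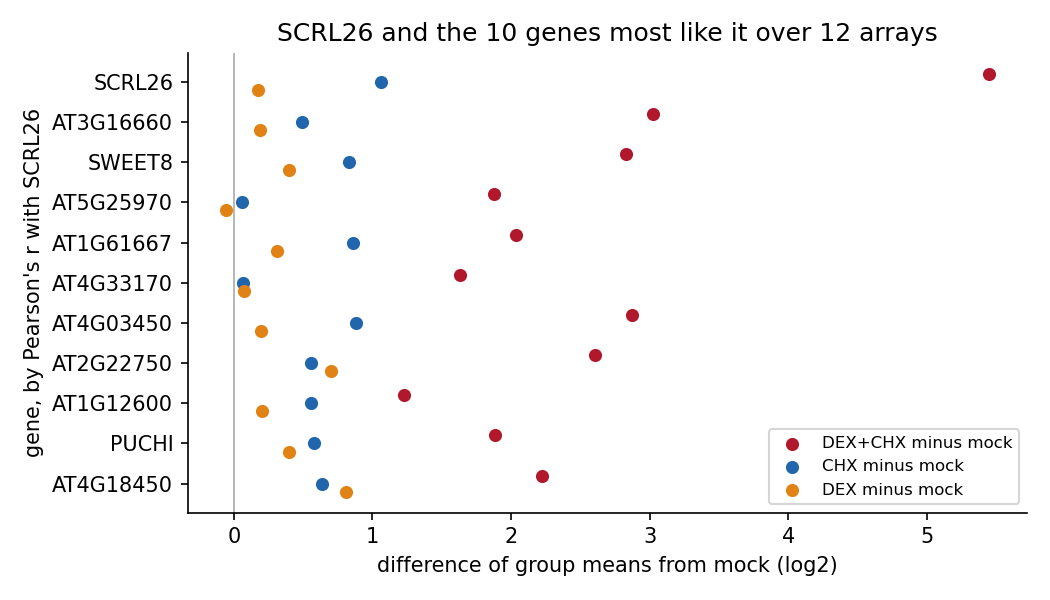
Difference of each group mean from mock on the log2 scale (horizontal axis) for SCRL26 and the 10 genes with the highest Pearson's r with it, in that order from the top. DEX+CHX lies farthest to the right in every gene, at 5.45 for SCRL26.

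SCRL26 was chosen for a DEX effect more positive under CHX than without it, so its call is no result. Limma called the DEX effect as more positive under CHX for 6 other genes, and with SCRL26 counted they made up 0.0423% of those tested. The levels of the other 6 followed more than 1 course. AT3G16660, AT5G25970 and AT4G33170, which were also among the 10 above, stood well higher with DEX+CHX than under CHX, DEX or mock. In AT5G25970 and AT4G33170 the means under CHX, DEX and mock were close. In AT3G16660 the CHX mean of 4.38 lay above the mock mean of 3.88. AT2G12462 averaged 9.23 with DEX+CHX, 5.13 with CHX, 11.79 with DEX and 10.27 with mock, and its r with SCRL26 was -0.145. AT4G03420 averaged 9.001 with DEX+CHX, 6.08 with CHX, 8.16 with DEX and 7.66 with mock (r = 0.558). In these last genes the CHX mean lay below the mock mean, by 5.13 and 1.57, whereas in SCRL26 it lay above. AT2G25150 averaged 6.32 with DEX+CHX and 6.15 with CHX, against 7.65 with DEX and 9.36 with mock, and its DEX difference was 0.17 under CHX and -1.72 without it (r = -0.595).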

How the data were processed

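Total RNA from whole roots was hybridised to Affymetrix arrays, 1 per sample, after labelling as sense-strand DNA per the labels' protocols. The authors used Affymetrix Expression Console 1.3, per the submitters' processing notes; its settings are not stated. The deposited values are treated as log2 expression, since their range of 0.43 to 13.98 exceeds the natural log of the largest scanner reading, and they were not normalized again. No detection call was used. The platform annotation gave 1 gene for 16722 of the 38408 rows, several for 759 and none for 20927. A gene was read from its probe set with the highest mean, giving 16550 genes, of which 16411 took their name from RefSeq (TAIR10.1). Coordinates are left out, since no source names the annotation's build.

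The 12 arrays entered 1 linear model with a coefficient for each treatment (R 4.3.3, limma 3.58.1), with two-sided moderated tests and Benjamini-Hochberg adjustment over 16550 genes. Fold changes are antilogs of log2 differences. In simulated CHX and mock arrays of 16550 genes, 50 genes were changed at each size, with independent noise. The fit recovered 28% of genes changed by 0.5 on the log2 scale, 78% at 1 and 100% at 2 and 4, and 7.83% of calls were false. In the real arrays 54.9% of genes were called with CHX. These rates therefore check the code and do not give the power or error of that comparison. The SCRL, LCR and PDF lists were taken by symbol or synonym. Genes with both an LCR and a PDF name (LCR66, LCR67, LCR68, LCR69 and LCR72) were placed in the PDF list. Genes named are the members of these lists, S-domain kinases, the 3 genes on either side of SCRL26, the 10 genes with the highest r, the genes with a called positive interaction, LBD16 and tissue markers. SCRL26 and these lists were chosen with earlier results of these data known.

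Same-numbered arrays of DEX+CHX and CHX deviated together from their group means (r = 0.244, 0.157 and 0.332 across genes) and were read as pairs from the data. For DEX and mock r was 0.073, 0.053 and 0.227, and for CHX and mock 0.111, 0.077 and 0.211. These were positive too but lower in each replicate, and were not read as pairs. A link between them is not excluded. No 2 arrays were identical. The alternatives tried were quantile normalization, centred arrays, the replicate block, leaving out the dimmest 30% of genes, all rows, averaged probe sets, a trended and robust variance, the compared arrays alone, an adjusted p of 0.01 and each array left out.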

Additional observations from a re-analysis of the deposited data

Results flagged for a closer look

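The DEX effect of SCRL26 was more positive with CHX than without it by 4.21 on the log2 scale. The gene was chosen for this difference, so no test is read from it. By the interaction term of the limma fit, the DEX effect was called more positive with CHX for some other genes. They were AT2G12462 at 2.57, AT4G03420 at 2.41, AT3G16660 at 2.34, AT2G25150 at 1.88, AT5G25970 at 1.87 and AT4G33170 at 1.49.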

How the results depend on the processing

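The SCRL26 difference between DEX+CHX and CHX was 4.21 to 4.39 under the alternatives and 4.11 to 4.68 with 1 array left out. That between DEX and mock was 0.05 to 0.31 with 1 array left out, that between CHX and mock 0.77 to 1.34, and the interaction 3.93 to 4.51. With a replicate block, CHX against mock stood at 1.06 (limma adjusted p = 0.00348), and among the cysteine-rich genes 1 was called with DEX, SCRL25 (0.55, adjusted p = 0.0371), and LCR22 lost its call with CHX (adjusted p = 0.0585); otherwise the block moved no SCRL26 result and no count by more than 1.5 times. With a trended, robust variance 1 was called, and 0 to 2 with 1 array left out, against 0. With CHX the 19 called came to 10 without the dimmest genes, where fewer were tested, and to 17 to 23 with 1 array left out. For DEX+CHX against CHX and for the interaction limma called 0 under every alternative, while 2 and 4 of the 82 (2.44% and 4.88%) had an unadjusted p below 0.05, against 5.27% and 6.18% of all genes.

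Of all genes, 98 were called for DEX+CHX against CHX, 61 with just the arrays compared, 55 at an adjusted p of 0.01 and 62 to 98 with 1 array left out (62 when DEX+CHX replicate 1 was left out, 64 for DEX+CHX replicate 2 and for CHX replicate 3). For DEX against mock the count of 252 came to 130, 120 and 150 to 229 (150 without mock replicate 3). For CHX against mock 9088 came to 23040 with all rows and 8416 to 9060 with 1 array left out. The 21 interactions came to 32 with all rows, 53 with a trended, robust variance and 17 to 23 with 1 array left out. Of the 10 genes most like SCRL26, 0 were kept by Spearman's rho, 1 by root mean square distance, 9 after quantile normalization, 7 with the replicate block and 8 to 10 with 1 array left out. Unless stated, the cause of a change was not tested. Low signals have no stated floor, which limits what the dim SCRL, LCR and PDF genes can show.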

Other observations

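Of the 20927 rows with no gene name here, 17 had a Pearson's r above 0.9 with SCRL26 over the 12 arrays, against 21 of the named genes. This threshold was chosen after the data had been seen, and the counts are a description only. These rows are unnamed in the annotation used, and nothing further is said of them.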
